A study of Homo sapiens with 6 samples.

Results

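The genes described here are 10 of the transforming growth factor beta (TGF-beta) family and its signal chain: the ligand genes GDF15, INHBA, INHBB, TGFB1, TGFB2, BMP2 and BMP5, and the SMAD genes SMAD3, SMAD6 and SMAD7. They were chosen by gene symbol, with earlier results of these data known. All 10 were found among the 60611 rows of a count table. RNA was measured in 6 libraries of EndoC-BH5, a line of human beta cells from endocrine pancreas labelled WT. The vehicle group had 3 libraries of cells given vehicle, and the cytokine group had 3 libraries of cells given interferon gamma and interleukin 1 beta together. Dose, exposure time and what the vehicle held are not stated in the labels. All libraries came from 1 line, and the design speaks of 3 batches per group without saying whether these were separate cultures. The p-values therefore measure only how these samples vary, which may be technical.

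Ligands of this family are secreted dimers that bind a pair of receptor kinases called type I and type II. TGF-beta and activin receptors pass the signal to SMAD2 and SMAD3, whereas receptors for bone morphogenetic proteins (BMPs) pass it to SMAD1, SMAD5 and SMAD9, and either set enters the nucleus with SMAD4. SMAD6 and SMAD7 are inhibitory SMADs that block the receptors and are themselves induced by the pathway. GDF15 is a distant family member released by stressed cells, and its receptor GFRAL, which signals through RET, is known from the brainstem. In the pancreas, activins and BMPs are known to act on beta-cell differentiation and insulin secretion.

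Promoter letters are shown for 5 genes. In 4 of them, GDF15, INHBA, TGFB2 and SMAD7, which were higher with cytokines, a window held the letters TATAAA of the TATA box. The SMAD6 window held the letters of the SMAD box. Each run is the 250 bases before a RefSeq start on GRCh38.p14, written 5′ to 3′ on the gene's strand, and capitals mark the motif letters found.
GDF15, chr19:18385908-18386157, plus strand: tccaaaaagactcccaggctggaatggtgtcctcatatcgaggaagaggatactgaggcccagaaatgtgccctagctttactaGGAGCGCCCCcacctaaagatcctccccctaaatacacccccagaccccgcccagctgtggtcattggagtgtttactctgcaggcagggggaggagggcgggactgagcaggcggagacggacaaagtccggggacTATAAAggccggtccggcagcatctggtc
TGFB2, chr1:218345086-218345335, plus strand: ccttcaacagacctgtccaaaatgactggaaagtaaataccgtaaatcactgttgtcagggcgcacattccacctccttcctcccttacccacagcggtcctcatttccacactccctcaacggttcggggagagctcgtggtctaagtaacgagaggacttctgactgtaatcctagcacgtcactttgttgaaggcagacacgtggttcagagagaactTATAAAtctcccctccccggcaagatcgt
INHBA, chr7:41703091-41703340, minus strand: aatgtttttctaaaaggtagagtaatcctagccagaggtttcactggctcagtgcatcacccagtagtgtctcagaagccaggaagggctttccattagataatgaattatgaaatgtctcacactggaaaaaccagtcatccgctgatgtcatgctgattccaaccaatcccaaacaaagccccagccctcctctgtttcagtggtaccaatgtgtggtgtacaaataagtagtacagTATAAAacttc
SMAD7, chr18:48949334-48949583, minus strand: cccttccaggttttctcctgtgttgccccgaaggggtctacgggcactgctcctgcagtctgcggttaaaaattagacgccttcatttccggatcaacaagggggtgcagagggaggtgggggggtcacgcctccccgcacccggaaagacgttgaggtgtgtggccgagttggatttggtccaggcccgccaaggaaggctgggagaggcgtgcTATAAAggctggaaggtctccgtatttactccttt
SMAD6, chr15:66701986-66702235, plus strand: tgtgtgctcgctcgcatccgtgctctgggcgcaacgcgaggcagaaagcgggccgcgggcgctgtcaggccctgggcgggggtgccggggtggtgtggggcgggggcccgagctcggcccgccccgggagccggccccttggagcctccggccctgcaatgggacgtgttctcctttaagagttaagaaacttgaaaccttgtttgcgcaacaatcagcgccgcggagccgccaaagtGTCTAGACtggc

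The TATA box (letters TATAAA, either strand) began 29 bases before the start in GDF15, 29 in TGFB2, 11 in INHBA and 35 in the SMAD7 window shown, which is 1 of 3 listed for that gene. It was found in 5 of the 15 windows listed for 9 of the 10 genes, the fifth being that of BMP5, and in 10.7% of all 35116 promoter windows of the same length. The other capitals in GDF15 are letters of the NF-kappaB site, also found in TGFB1, INHBB and SMAD3 and in 9.96% of all windows. The SMAD box (GTCTAGAC) lay 12 bases before the SMAD6 start and in 0.182% of all windows. None of the promoters of GDF15, INHBA, TGFB1, TGFB2 and SMAD7 held the interferon gamma activated site (TTCNNNGAA), found in 6.57% of all windows, the interferon-stimulated response element (3.02%), the ATF4-CHOP site (TGATGNAA, 3.14%), the AP-1 site (TGANTCA, 6.57%) or the GC-rich SMAD site (GGCGCC, 16.4%). Motifs were searched on both strands, and the TATA box and NF-kappaB searches were added after the data were seen. The BMP2 promoter was not analysed here, and a match or its lack says only which letters are in these windows.

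Total estimated counts ranged from 5871481 to 16175364 per library, with vehicle replicate 1 the shallowest. Levels are given in CPM, the TMM-scaled share of a library's counts, and a change is the log2 ratio of the cytokine to the vehicle level, given with its standard error (SE) from an edgeR quasi-likelihood fit over 17847 genes with Benjamini-Hochberg adjustment, called at an adjusted p under 0.05. All 8 beta-cell markers were tested, of which 3 rose and 5 fell, and their summed level was 9825 to 10487 CPM in vehicle and 13562 to 14203 CPM in cytokine libraries. Of 6 fibroblast or stellate markers only PDGFRB was tested, and it rose, taking the sum from 3.22 to 4.39 CPM up to 12.8 to 14.1 CPM, while the others stayed at 12 counts or fewer. Of 6 leukocyte markers CD68 rose and CD14 did not pass, with a sum of 8.18 to 8.74 CPM and then 23.0 to 24.8 CPM, while PTPRC had at most 4 counts. The 4 endothelial markers had at most 9 counts. Of 5 acinar markers PRSS1 and CELA3A were at 0 and only CPA1 was tested, which did not pass, with a sum of 5.72 to 6.14 CPM in vehicle and 4.87 to 5.86 CPM in cytokine libraries. Markers of other islet and duct cells were abundant. The 4 alpha-cell markers summed to 1883 to 2040 CPM in vehicle and 1927 to 2080 CPM in cytokine libraries, where IRX2 rose by 0.62 and GCG fell by 0.79 on the log2 scale. The 3 delta-cell markers summed to 540 to 608 and 568 to 607 CPM, and none passed in edgeR. The duct markers summed to 153 to 173 and 137 to 148 CPM, where MUC1 rose by 1.47 and KRT19 fell by 0.25 on the log2 scale. The part of other cells in the changes described here was not tested. In bulk RNA, fewer cells of a type and less RNA per cell cannot be told apart.

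Of the 10 genes, 6 rose with cytokines, namely INHBA, BMP2, GDF15, SMAD7, TGFB1 and TGFB2. SMAD3 did not pass, and INHBB, BMP5 and SMAD6 lay below the count filter and were not tested. In this comparison 57.1% of all tested genes were called, 28.3% as higher and 28.8% as lower, and 61.1% had no overlap between the libraries of both groups, 30.3% with the cytokine libraries above. The median log2 change was 1.22 over the 7 tested genes and -0.019 over all tested genes. At least 2-fold rises were found in 4 of the 7, INHBA, BMP2, GDF15 and SMAD7, against 5.97% of all tested genes. At least 2-fold falls were found in 0 of the 7, against 4.3%. Among the 10 tested ligand genes outside this list, 0 rose and 1 fell at least 2-fold. The genes of the list were chosen with earlier results of these data known, so these shares only describe them. A gene nearly silent in vehicle was tested only if it rose, so the 7 are not the whole set.

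**Figure D1:**
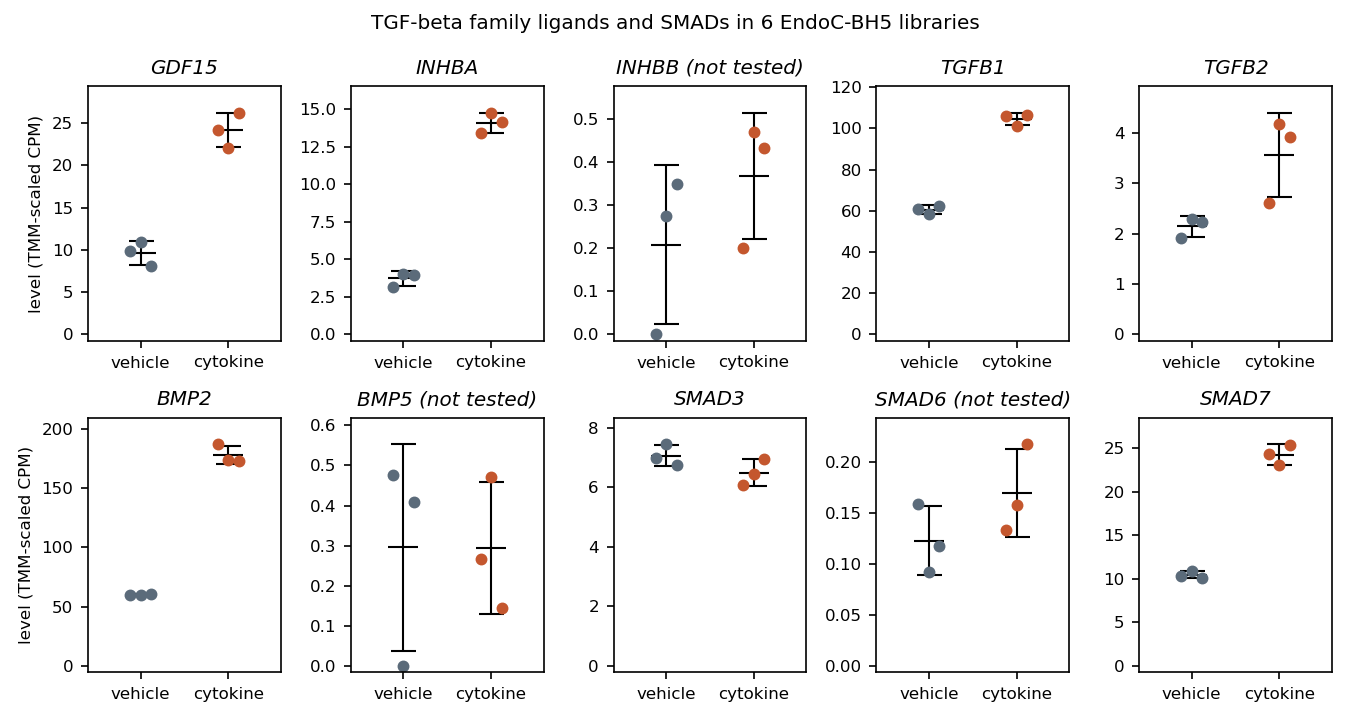
Level in TMM-scaled CPM (y axis, each panel with its own scale) of the 10 genes in 3 vehicle and 3 cytokine libraries; points are libraries, bars mean and SD. The groups stand apart in the 6 genes that rose and overlap in SMAD3, INHBB, BMP5 and SMAD6.

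BMP2 encodes bone morphogenetic protein 2, a ligand of the BMP receptors. Its level was 59.7, 59.9 and 60.8 CPM in vehicle replicates 1, 2 and 3, and 187, 174 and 173 CPM in cytokine replicates 1, 2 and 3. Every cytokine library thus lay above every vehicle library, and the vehicle libraries differed by little. The level went from 60.1 ± 0.554 to 178 ± 7.84 CPM (SD, n = 3), a 2.96-fold rise with a log2 change of 1.56 and SE 0.0498 (edgeR, adjusted p = 1.4e-21). BMP2 lies on the plus strand of chromosome 20 at 6767664 to 6780280 in GRCh38. BMP5, a related BMP ligand, had 3, 0 and 7 vehicle counts and 4, 6 and 2 cytokine counts. The ratio of its scaled totals was 0.990 with a 95% counting interval from 0.392 to 2.56, so a change was not detectable at this depth. Such intervals cover counting error only. BMP5 spans 55753645 to 55875564 of chromosome 6, minus strand.

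INHBA encodes the beta A subunit that pairs with itself to form activin A. It was at 3.18, 4.04 and 3.98 CPM in vehicle and 13.4, 14.8 and 14.1 CPM in cytokine libraries. The groups did not overlap, and this was the largest fold change among the 7 tested genes. The level went from 3.73 ± 0.482 to 14.1 ± 0.665 CPM (SD, n = 3), a 3.65-fold rise with a log2 change of 1.87 and SE 0.121 (edgeR, adjusted p = 5.7e-14). INHBA spans 41667168 to 41705834 of chromosome 7, minus strand, and the antisense gene INHBA-AS1, which overlaps its span but none of its exons, had 17 to 54 counts per library and rose by 0.64 on the log2 scale. INHBB, the beta B subunit of activin B, had 0, 3 and 6 vehicle counts and 3, 6 and 6 cytokine counts. Its ratio was 1.37 with a 95% counting interval from 0.564 to 3.56, and it lies on chromosome 2 at 120346143 to 120351808, plus strand. The alpha subunit gene INHA, whose product turns a beta subunit into an inhibin, was at 1.89 and 1.67 CPM and did not pass (log2 change -0.23, edgeR, adjusted p = 0.45).

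GDF15 was at 9.85, 10.9 and 8.13 CPM in vehicle replicates 1, 2 and 3 and 24.2, 22.1 and 26.2 CPM in cytokine replicates 1, 2 and 3. The lowest cytokine library was still above the highest vehicle library. The level went from 9.64 ± 1.41 to 24.2 ± 2.06 CPM (SD, n = 3), a 2.58-fold rise with a log2 change of 1.37 and SE 0.100 (edgeR, adjusted p = 1.0e-12). GDF15 lies on the plus strand of chromosome 19 at 18374731 to 18389176. Its receptor gene GFRAL had 1 count over the vehicle libraries and 5 over the cytokine libraries and was not tested. RET, the kinase that signals with GFRAL and with receptors of the GDNF family, fell by 2.07 on the log2 scale (SE 0.0798, edgeR, adjusted p = 1.9e-19). It was at 40.7, 36.9 and 39.8 CPM in vehicle and 8.92, 9.67 and 9.41 CPM in cytokine libraries, with no overlap.

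Across the 6 libraries, the genes whose centred log2 levels lay nearest to those of GDF15 were MOB3C, RBM38, BAK1, WDR25 and HM13, at Euclidean distances of 0.24, 0.24, 0.26, 0.27 and 0.27 on the log2 scale among 10864 genes with at least 10 CPM. BAK1 encodes a pore-forming protein of mitochondrial apoptosis, RBM38 an RNA-binding protein and HM13 the signal peptide peptidase of the endoplasmic reticulum. Their log2 changes were 1.35 for MOB3C, 1.41 for RBM38, 1.35 for BAK1, 1.31 for WDR25 and 1.24 for HM13. The genes were picked by the closeness of these levels, so changes near that of GDF15 follow from the choice. The values share libraries and depth.

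TGFB1 and TGFB2 encode TGF-beta ligands, which are secreted in a latent form. TGFB1 was at 61.0, 58.4 and 62.4 CPM in vehicle and 106, 101 and 107 CPM in cytokine libraries, with no overlap. It went from 60.6 ± 1.99 to 105 ± 3.01 CPM (SD, n = 3), a 1.72-fold rise with a log2 change of 0.79 and SE 0.0507 (edgeR, adjusted p = 5.1e-14). TGFB1 spans 41301587 to 41353911 of chromosome 19, minus strand, where 4 genes of the other strand overlap it. Of these, HNRNPUL1 shares 215 exonic bases and rose by 0.18 on the log2 scale. With the counting strand not stated, reads of such pairs may not be separated.

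TGFB2 was lower, at 1.91, 2.30 and 2.22 CPM in vehicle and 2.60, 4.17 and 3.91 CPM in cytokine libraries. Cytokine replicate 1 lay close above the vehicle libraries, and the other two cytokine libraries lay well above them. The log2 change was 0.68, SE 0.207 (1.61-fold, edgeR, adjusted p = 0.0059), from 75 counts over the vehicle and 146 over the cytokine libraries. The call was lost with DESeq2 (adjusted p = 0.0784). TGFB2 lies on the plus strand of chromosome 1 at 218346235 to 218444619, and TGFB2-OT1, which shares 1371 exonic bases on the same strand, reached no more than 7 counts per library. TGFB3, the other TGF-beta ligand gene, was at 2.38 CPM in vehicle and did not pass (log2 change -0.28, edgeR, adjusted p = 0.36).

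SMAD7, the inhibitory SMAD that recruits ubiquitin ligases to the receptors, was at 10.3, 10.9 and 10.1 CPM in vehicle and 24.4, 23.0 and 25.4 CPM in cytokine libraries. The groups were far apart relative to their spread. The level went from 10.5 ± 0.424 to 24.3 ± 1.20 CPM (SD, n = 3), a 2.33-fold rise with a log2 change of 1.22 and SE 0.0861 (edgeR, adjusted p = 4.3e-13). SMAD7 spans 48919853 to 48952052 of chromosome 18, minus strand. SMAD6, the inhibitory SMAD that acts mainly on BMP signals, had 1, 1 and 2 vehicle counts and 2, 2 and 3 cytokine counts. Its ratio was 1.44 with a 95% counting interval from 0.367 to 6.72, so its direction could not be read at this depth. Tested without the count filter, INHBB, BMP5 and SMAD6 did not pass (edgeR, adjusted p = 0.67, 0.996 and 0.79).

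SMAD3 carries the activin and TGF-beta signal to the nucleus. It was at 6.99, 7.44 and 6.73 CPM in vehicle and 6.06, 6.45 and 6.95 CPM in cytokine libraries, and the groups overlapped. The log2 change was -0.11 (SE 0.124) with a 95% interval from -0.37 to 0.14 (edgeR, adjusted p = 0.46). Scaling by library size alone moved the median change of all genes to -0.22. SMAD3 was then called lower at -0.32 (edgeR, adjusted p = 0.027), and the 6 genes that rose were still called higher. SMAD3 and SMAD6 lie on the plus strand of chromosome 15, at 67063763 to 67195195 and 66702228 to 66782848. In the authors' deposited table the log2 changes of the 6 genes ran from 0.74 for TGFB2 to 1.87 for INHBA, and the FDR of SMAD3 was 0.88.

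Per kilobase of merged exons, the order of the 15 tested ligand genes of the superfamily differed between the groups. These lengths join all annotated exons of a gene, whichever transcripts were expressed, so the order of genes with close levels is uncertain. In vehicle libraries BMP8A led at 30.1 CPM per kb, followed by TGFB1 at 18.7, then BMP8B, and BMP2 at 16.7. In cytokine libraries BMP2 led at 49.4 ± 2.18 CPM per kb, followed by TGFB1 at 32.3 ± 0.930 and BMP8B at 20.6 ± 0.968 (SD, n = 3). GDF15 went from 4.62 to 11.6 CPM per kb, next to INHBE in vehicle and to AMH in cytokine libraries, and its libraries overlapped with those of that neighbour each time. INHBA went from 0.450 CPM per kb, where it overlapped with TGFB3 and TGFB2, to 1.70, where it overlapped with GDF1. BMP8A and BMP8B are near-identical copies that can share reads, so their values are uncertain. BMP8A was at 50.9 and 28.9 CPM (log2 change -0.83) and BMP8B at 86.9 and 99.5 CPM (log2 change 0.20, turning to -0.0066 with scaling by library size alone).

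**Figure D2:**
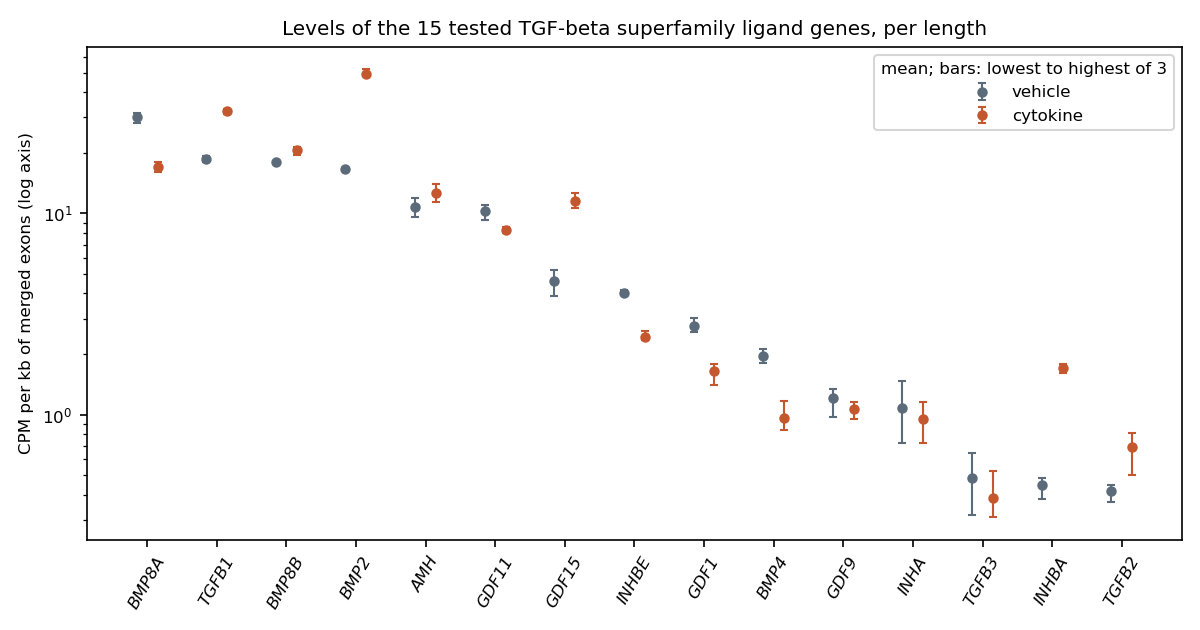
Level in CPM per kb of merged exons (y axis, log scale) of the 15 tested ligand genes, ordered by vehicle level; points are means of 3 libraries, bars run from the lowest to the highest library. BMP2 moves from 16.7 to 49.4 and GDF15 from 4.62 to 11.6, while BMP8A falls from 30.1 to 17.1.

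Ratios between genes of one library do not depend on scaling between libraries, and 3 were computed, chosen after the values were seen. BMP2 over TGFB1, in counts per kb, was 0.880, 0.922 and 0.876 in vehicle and 1.59, 1.54 and 1.46 in cytokine libraries. Which gene of a pair came out higher depends on the exon lengths used. SMAD7 over SMAD3 went from 2.69 ± 0.0334 to 6.79 ± 0.432 (SD, n = 3). BMP2 over BMP4, a BMP ligand gene that fell by 1.01 on the log2 scale, went from 8.55 ± 0.761 to 52.7 ± 10.5 (SD, n = 3). No ratio overlapped between the groups, and each two-sided exact permutation p was 0.1 before and after adjustment over the 3, the smallest that 3 against 3 allows. The paired genes had already been seen to differ in their changes, so this separation follows from the choice and only describes the pairs.

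**Figure D3:**
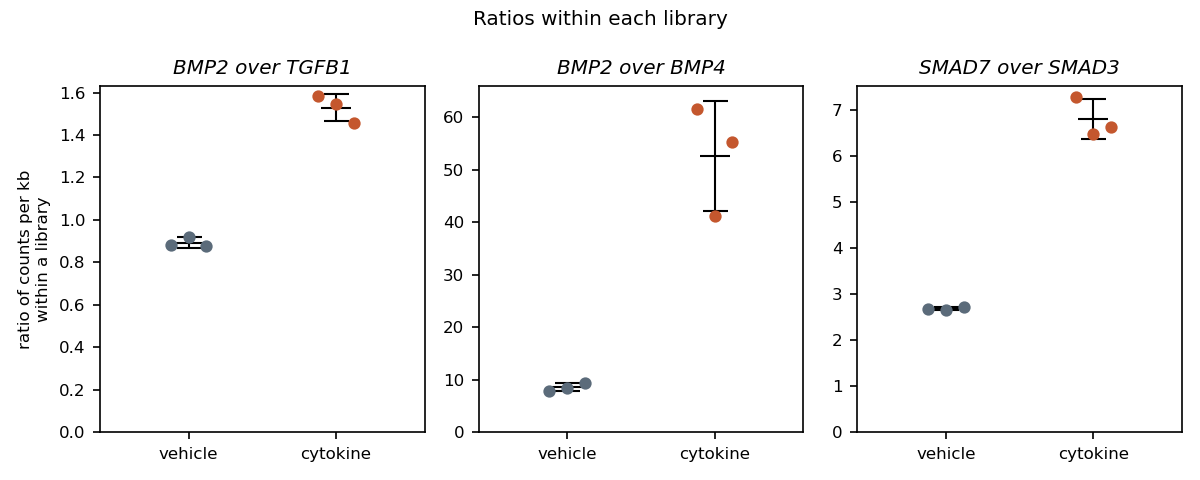
Ratio of counts per kb of merged exons between 2 genes of the same library (y axis, from 0) in 3 vehicle and 3 cytokine libraries; points are libraries, bars mean and SD. All cytokine libraries lie above all vehicle libraries, with means of 0.893 against 1.53, 8.55 against 52.7 and 2.69 against 6.79.

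The other pathway genes were described by 7 role lists of 124 genes. Of 78 that were tested, 36 rose, 19 fell and 23 did not pass. Scaled by library size alone, the split was 26 higher and 30 lower. Their median log2 change was 0.10. Over all tested genes 28.3% were called higher and 28.8% lower, shares that also stand beside the counts of each list below. INHBE, GDF1, GDF11, TGFBR1, TGFBR2, ACVR1B, BMPR2, ACVR2A, ACVR2B, RGMA, SMAD2, SMAD4 and SMAD5 are named in addition to those the rule gave. LTBP4, FURIN, GREM1, TAB2, HEY1, MSX1, CDKN1A, MYC, ID2, ID3, ID4, JUNB, INHA, TGFB3, CCN2, TGFBI and FST are also named in addition. All of these additional genes were chosen once their values had been seen.

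Of 26 other ligand genes, 10 were tested, of which 5 fell, 2 rose and 3 did not pass. With scaling by library size alone, 6 fell and 0 rose at an adjusted p under 0.05. BMP4 went from 6.05 ± 0.479 to 2.96 ± 0.566 CPM (SD, n = 3) with a log2 change of -1.01 (edgeR, adjusted p = 4.4e-06). GDF11, a ligand of activin receptors, went from 89.1 to 71.2 CPM, and INHBE, an activin subunit gene known mainly from liver, from 12.2 to 7.34 CPM. AMH, the anti-Müllerian hormone gene, rose by 0.26 on the log2 scale with overlapping libraries (edgeR, adjusted p = 0.0057), a call lost with scaling by library size alone (adjusted p = 0.53) and without cytokine replicate 1 (adjusted p = 0.0562). The 16 untested ligand genes reached no more than 13 counts per library.

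Of 21 receptor and coreceptor genes, 13 were tested, of which 4 rose and 6 fell. The genes that rose included the BMP type I receptor genes ACVR1, from 44.4 ± 2.47 to 73.9 ± 1.16 CPM, and BMPR1A, from 48.4 ± 1.77 to 74.9 ± 1.19 CPM (SD, n = 3). The other 2 were type II receptor genes, BMPR2 of the BMP branch, from 65.9 to 89.4 CPM (log2 change 0.43), and ACVR2A, which serves activins and BMPs, from 10.4 to 13.7 CPM (log2 change 0.45). Among those that fell was ACVR1C, which encodes the type I receptor ALK7 for activin B and nodal, at 456, 466 and 475 CPM in vehicle and 203, 211 and 189 CPM in cytokine libraries. Its log2 change was -1.21, SE 0.0439 (edgeR, adjusted p = 3.8e-20). The activin type I receptor gene ACVR1B fell by 0.40 and the TGF-beta type I receptor gene TGFBR1 by 0.32 on the log2 scale. RGMA, a coreceptor for BMPs, fell by 0.55 on the log2 scale. RET, given above, and ACVR2B, another type II receptor gene, were the remaining genes called lower. The libraries of ACVR2B overlapped, and its call (log2 change -0.21, edgeR, adjusted p = 0.024) was lost with DESeq2 (0.255), without the count filter (0.0555) and on leaving out vehicle replicate 3 (0.18), cytokine replicate 1 (0.0917) or cytokine replicate 3 (0.151). TGFBR2, the type II receptor for TGF-beta, had 19 counts over the vehicle and 27 over the cytokine libraries and was not tested.

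All 5 other SMAD genes were tested. SMAD9, a SMAD of the BMP branch, was at 3.81, 5.33 and 3.45 CPM in vehicle and 11.5, 13.8 and 13.0 CPM in cytokine libraries, a log2 change of 1.62, SE 0.137 (edgeR, adjusted p = 2.5e-11). SMAD1 of the same branch went from 16.7 to 24.8 CPM (log2 change 0.55), and the shared partner SMAD4 was called higher at 0.16 on the log2 scale (edgeR, adjusted p = 0.014). The SMAD4 call was lost with DESeq2 (adjusted p = 0.0566) and without vehicle replicate 3 (adjusted p = 0.0534), and the change turned to -0.046 with scaling by library size alone. SMAD2 and SMAD5 did not pass, at log2 changes of 0.052 and 0.031. With scaling by library size alone, 2 of the 5 genes rose and 2 fell.

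Of 25 genes for ligand storage, processing and extracellular antagonists, 13 were tested, of which 5 rose and 2 fell. CRIM1, which encodes a membrane protein that binds BMPs, went from 36.1 ± 1.41 to 199 ± 6.67 CPM (SD, n = 3), a log2 change of 2.45, SE 0.0533 (edgeR, adjusted p = 8.6e-26). GREM1, a secreted BMP antagonist, went from 115 to 165 CPM (log2 change 0.51), and FURIN, a protease that cleaves the precursors of these ligands, from 96.2 to 125 CPM (log2 change 0.38). LTBP4, a latent TGF-beta binding protein gene, went from 56.0 to 82.8 CPM (log2 change 0.57, edgeR, adjusted p = 1.6e-09). BMPER, a BMP-binding protein gene, was at 1.20 and 2.43 CPM, and its call (log2 change 0.94, edgeR, adjusted p = 0.0068) was lost with DESeq2 (adjusted p = 0.0612) and without vehicle replicate 2 (log2 change 0.58, adjusted p = 0.0642). Its log2 change was 1.55 without vehicle replicate 3. NBL1, another BMP antagonist gene, fell by 0.49 on the log2 scale, and LTBP2, of the same family as LTBP4, by 0.45, a call lost with DESeq2 (adjusted p = 0.0936). FST, the activin antagonist follistatin, reached no more than 1 count per library.

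Of 20 intracellular regulators of SMAD signalling, 18 were tested, of which 11 rose and 2 fell, or 6 and 6 under scaling by library size and 10 and 0 with DESeq2. TGIF2, a repressor that binds SMADs, went from 5.46 to 10.6 CPM (log2 change 0.97), and USP15, a deubiquitinase acting on receptors and SMADs, from 50.1 to 96.7 CPM (log2 change 0.96). The phosphatase gene CTDSP1 and ZFYVE9, which encodes the SMAD anchor SARA, were called lower at log2 changes of -0.22 and -0.20. Both calls were lost with DESeq2 (adjusted p = 0.0873 and 0.184), and that of ZFYVE9, whose libraries overlapped, also on leaving out vehicle replicate 2 (0.0684), vehicle replicate 3 (0.198) or cytokine replicate 3 (0.129). Of 7 genes for signalling without SMADs, 3 rose and 1 fell, or 1 and 3 under scaling by library size and 2 and 0 with DESeq2. XIAP, a caspase inhibitor that also joins these receptors to TAK1, rose by 0.61 on the log2 scale. TRAF6, a ubiquitin ligase shared with interleukin 1 signalling, rose by 0.26 on the log2 scale, a call lost with scaling by library size alone (adjusted p = 0.537). TAB2, an adaptor of TAK1, was called higher at 0.11 on the log2 scale (edgeR, adjusted p = 0.047). Its call was lost with the replicate block (adjusted p = 0.0653), with DESeq2 (0.0788), without the count filter (0.107) and on leaving out any library but cytokine replicate 3 (0.067 to 0.104), and it turned to -0.094 with scaling by library size alone. MAP3K7, which encodes TAK1, had a log2 change of -0.18 (edgeR, adjusted p = 0.013), a call lost with DESeq2 (0.139), and on leaving out vehicle replicate 2 (0.0706), vehicle replicate 3 (0.0534), cytokine replicate 1 (0.0768) or cytokine replicate 3 (0.107).

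Of 21 textbook target genes of SMADs, 13 were tested, of which 8 rose and 4 fell, with the same counts under scaling by library size and 8 higher and 2 lower with DESeq2. The 4 ID genes, which encode inhibitors of helix-loop-helix transcription factors and are classical targets of the BMP branch, all rose. ID1 was at 26.4, 27.2 and 24.2 CPM in vehicle and 170, 164 and 176 CPM in cytokine libraries, a log2 change of 2.73, SE 0.0580 (edgeR, adjusted p = 4.8e-26). The log2 changes of ID2, ID3 and ID4 were 1.34, 1.87 and 1.07, and none of their libraries overlapped between the groups. Over all tested genes 61.1% had no such overlap. FN1, the fibronectin gene, went from 2.97 ± 0.741 to 73.0 ± 6.44 CPM (SD, n = 3), and JUNB, an AP-1 subunit gene, rose by 1.42 on the log2 scale. CDKN2B, a cell cycle inhibitor gene, fell from 90.1 ± 3.23 to 30.2 ± 0.762 CPM (SD, n = 3), and TGFB1I1, an adaptor of focal adhesions, fell by 0.94 on the log2 scale. HEY1, another target of the BMP branch, was at 6.80 and 5.02 CPM and was called lower (log2 change -0.44, edgeR, adjusted p = 0.0067), a call lost with DESeq2 (0.136) and without vehicle replicate 2 (0.0578). The homeobox gene MSX1 and the cell cycle inhibitor gene CDKN1A rose by 0.77 and 0.78 on the log2 scale, LTBP2 is also in this list, and MYC did not pass. CCN2 and TGFBI, targets typical of TGF-beta in stromal cells, reached no more than 9 counts per library. Many of these targets also answer to other signals, and which signal moved them was not tested.

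**Figure D4:**
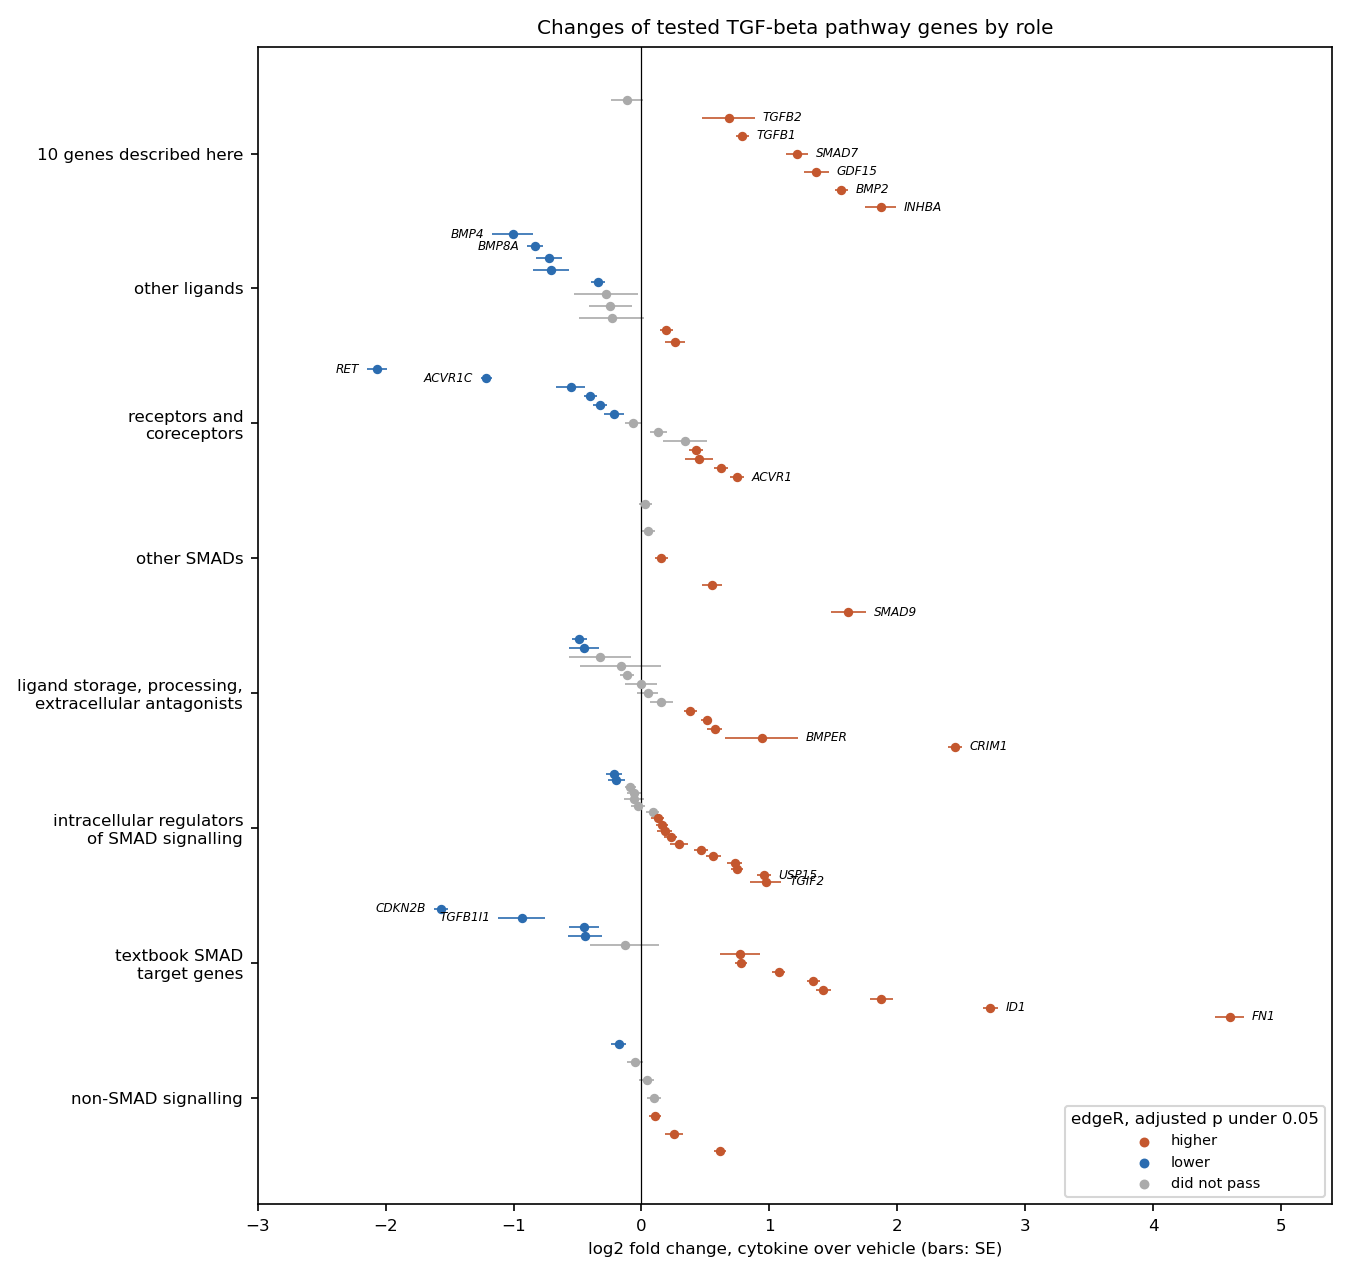
Log2 fold change of cytokine over vehicle (x axis, bars SE) of the tested genes of each role list (y axis); colours mark genes called higher, lower or neither in edgeR at an adjusted p under 0.05. The 6 genes that rose lie between 0.68 and 1.87, RET lies at -2.07 and FN1 at 4.60.

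Leaving out each of the 6 libraries in turn gave 6 of these genes called higher each time. The log2 change of TGFB2 then ran from 0.56 without cytokine replicate 2 to 0.89 without cytokine replicate 1.

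**Figure D5:**
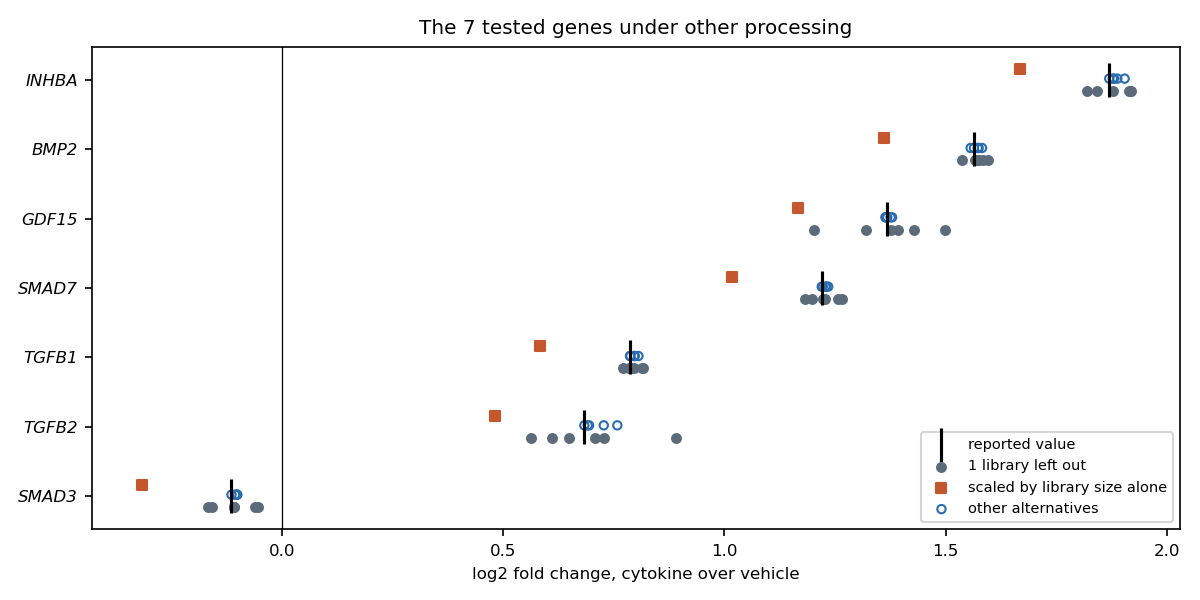
Log2 fold change of cytokine over vehicle (x axis) of the 7 tested genes (y axis) as reported and under other processing. The values with scaling by library size alone lie to the left of the reported ones, and SMAD3 then lies at -0.32.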

How the data were processed

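RNA from 6 libraries of a directional kit (per the labels' protocols) was analysed from 1 table. The authors deposited estimated counts per gene and library, 67.3 to 73.5% of them whole (within 0.005), beside their log2 fold changes, F scores, p-values and gene lengths, per the file headers. Per the submitters' processing notes, cutadapt 2.10, STAR 2.7.5a, HTSeq 0.12.4 and GRCh38 were used. The tool behind the estimates, the strand setting used in counting and the gene annotation are not given in the sources used here. Columns headed NT were taken as vehicle.

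Counts were rounded to whole numbers and tested with edgeR 4.0.16 in R 4.3.3 (filterByExpr, TMM, robust quasi-likelihood fit, group alone, Benjamini-Hochberg over 17847 genes, threshold 0.05). The SE is the absolute log2 change over the square root of F. Lengths and gene spans came from GENCODE 29 and promoters from RefSeq. Library pairs within a group differed by 1.34 to 2.32 chi-square per gene, more than sampling noise. On simulated data 50, 82, 92 and 100% of genes changed by log2 0.25, 0.5, 1 and 2 were recovered, with 11 of 173 calls false. The measured comparison gave 10199 calls over the same number of genes, so these shares need not hold for it. Recovery was summed up by size of change alone. It therefore does not speak to genes of low count, such as TGFB2, or to the scaling between the groups.

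The 10 genes, the role lists and the marker lists were chosen with earlier results of these data known. Besides the 10, the genes nearest to GDF15 and the GDF15 receptor genes RET and GFRAL, up to 2 genes called higher and 2 called lower, by size of log2 change and with at least 1 CPM, were named per list. Alternatives were other scalings, other filters, DESeq2 1.42.0, a replicate block, each library left out, a stricter threshold and glmTreat against a fold of 1.5.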

Additional observations from a re-analysis of the deposited data

How the results depend on the processing

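GDF15, INHBA, TGFB1, BMP2 and SMAD7 kept their direction and call in all 14 alternatives, with lowest log2 changes of 1.17, 1.67, 0.58, 1.36 and 1.02. TGFB2 ran from 0.48 to 0.89 and lost its call with DESeq2 and against a fold of 1.5 (adjusted p = 0.0784 and 0.653). SMAD3 ran from -0.32 to -0.053. Scaling by library size alone left out TMM factors of 1.063 to 1.079 in vehicle and 0.931 to 0.935 in cytokine libraries. It called 1 of the 10 genes lower (SMAD3), called 30 other pathway genes lower in place of 19, and turned BMP8B to -0.0066. Over the table it gave 2980 higher and 8779 lower genes in place of 5057 and 5142. What makes the factors differ between the groups was not tested. DESeq2 called 3356 genes lower. A test against a fold of 1.5, stricter by construction, called 2345 genes (1395 higher, 950 lower) and 19 pathway genes (14 higher, 5 lower). Leaving out each library in turn gave 6 called genes of the 10 each time. Same-numbered libraries were not paired, since their deviations correlated at 0.081, 0.046 and -0.10, and no label ties the numbers. With the replicate number as a block, 6 of the 10 genes and 55 pathway genes (35 higher, 20 lower) were called, and 10111 genes over the table (5010 higher, 5101 lower). Depth limits INHBB, BMP5 and SMAD6, at 7 counts or fewer per library.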
